A study of Mus musculus with 67 samples.

Results

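The rows described here rose in the microglia of wild-type mice 24 h after LPS and changed little in microglia grown in culture. The 170 members were chosen from the 45707 rows of a pair of count tables that list their rows in the same order. With L as log2(CPM + 1), where CPM is a row's count divided by the total of its library and scaled in the usual way, a row was kept when L was at least 1 higher after LPS at 24 h than after vehicle in sorted WT cells. It also had to differ by less than 1 in culture for WT LPS, WT Tg+PDBu and KO Tg+PDBu, each against its own vehicle, and for KO vehicle against WT vehicle. Of the 581 rows that met the first condition, 170 met all of them (29.3%), so the limit of 200 rows was not reached. No gene name or identifier accompanies the rows. They are therefore given by their number from the top of the table, and no gene, promoter or protein sequence can be shown for them.

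Microglia are the resident macrophages of the brain. LPS, a component of the bacterial outer membrane, is sensed by the receptor TLR4, which starts an early wave of inflammatory transcription and a later wave that depends on secreted factors such as interferons and cytokines. After a systemic dose the brain also receives signals from the blood and from other cell types, which a dish of microglia lacks. Orai1 forms the pore of the store-operated calcium channel, which lets calcium in once the endoplasmic reticulum has released its own. Thapsigargin (Tg) depletes that reservoir and PDBu, a phorbol ester, activates protein kinase C.

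All animals carried floxed Orai1 alleles (Orai1fl/fl). Those called KO also carried Cx3CR1-cre/ERT2, a tamoxifen-inducible Cre made in cells with an active Cx3cr1 promoter, and those called WT carried no Cre, so loss of Orai1 and presence of Cre cannot be told apart. For the sorted cells, both genotypes received tamoxifen on 5 consecutive days, waited 30 to 35 days and were then, at 10 to 12 weeks of age, injected with sterile PBS (vehicle) or LPS from Escherichia coli O111:B4 at 1 mg/kg. Microglia were sorted by FACS from whole brain. These 33 libraries were 6 WT vehicle, 8 WT LPS 24 h, 3 WT LPS 6 h, 6 KO vehicle, 7 KO LPS 24 h and 3 KO LPS 6 h, with both sexes in each group except the 6 h groups, which were all male. The 34 culture libraries came from hippocampal microglia of newborn mice of both sexes, grown with 1 µM hydroxytamoxifen and treated for 6 h with DMSO (vehicle), LPS at 10 ng/ml, or Tg at 0.2 µM with PDBu at 50 nM. They were 6 vehicle, 6 LPS and 6 Tg+PDBu in WT, and 6, 5 and 5 in KO. LPS was therefore compared at a different time, dose, age and route in the 2 preparations. Culture libraries of the same genotype and sex that share a number in their names received different treatments. The labels do not say what that number stands for, nor which mouse each sorted library came from, and p-values measure the spread between these libraries.

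Total counts ran from 4989974 to 7596706 per sorted library and from 7868694 to 16070721 per culture library. Because rows have no names, neither the level of Orai1 nor any microglia marker could be checked. Row 1, chosen after its values were seen, held 0 to 2 counts in the 17 WT sorted libraries and 505 to 1642 in the 16 KO sorted libraries, so no library went against its genotype label by that row. Over the 26168 rows with counts in both tables, Spearman's rho of the mean level was 0.847 at the same row number and 0.281 to 0.290 when 1 table was shifted by 1 to 3 rows.

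Libraries stood apart in the 6 h groups. WT male LPS 6 h replicate 3 and KO male LPS 6 h replicate 1 lay near vehicle in the 11067 rows outside the members whose mean level reached 2 on the log2(CPM + 1) scale. In those rows, 530 and 468 differed at least 2-fold from the vehicle mean, against 1759 to 2309 in the other 4 libraries at 6 h. The members gave the same order by their median difference from the vehicle mean of the same genotype, on the log2(CPM + 1) scale. It was 0.50 and 0.24 in these libraries and 1.16 to 1.40 in the other 4. The tests at 6 h below are given with and without both libraries. KO male vehicle replicate 3 stood apart in the other direction. It had a median member difference of 0.28, against -0.11 to 0.03 in the other 5 KO vehicle libraries, and 823 of the other rows differed at least 2-fold from the vehicle mean in it. The 6 h libraries are numbered 68 to 73 and the others 3299 to 3402, so time and library numbering cannot be told apart at 6 h.

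**Figure D1:**
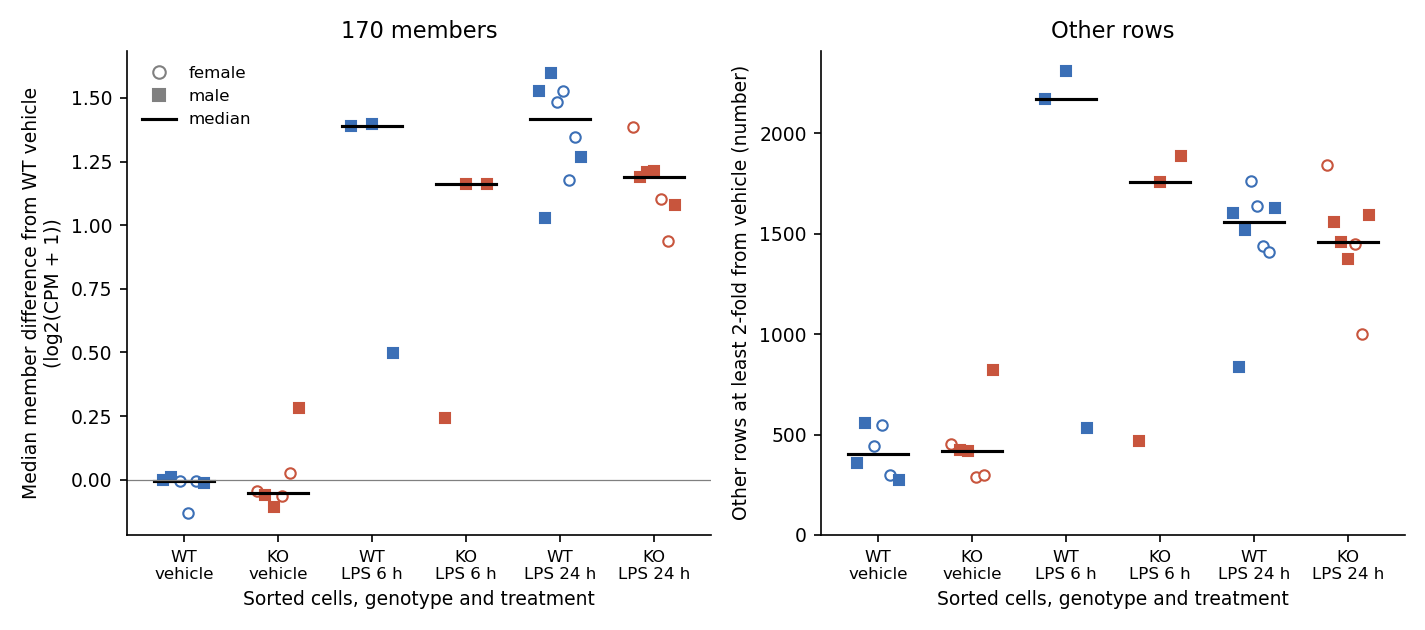
Left, the median over the 170 members of the difference from vehicle, in log2(CPM + 1), for each of the 33 sorted libraries. Open circles are females, filled squares males and black lines group medians. The reference was the vehicle mean of the same genotype, so KO libraries were set against KO vehicle although the axis names WT vehicle. A vehicle library was left out of its own reference. Right, the number of the 11067 other rows that lay at least 2-fold from the vehicle mean; 1 WT and 1 KO library at 6 h, with 530 and 468 such rows, sit among or near the vehicle libraries in both panels.

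The WT change at 24 h, which defined the members, ran from 1.01 to 3.58 on the log2(CPM + 1) scale, with a median of 1.33. It was under 1.5 in 113 members, at least 2 in 21 and at least 3 in 5. The threshold cut through a continuous range. The lowest members had 1.008 and 1.012, the nearest rows below the threshold had 0.9996 and 0.9989, 29 members lay between 1 and 1.1, and 75 rows that met the culture conditions lay between 0.9 and 1. The culture conditions were similar, since the largest culture difference was 0.90 or more in 21 members and under 0.5 in 83. Levels spanned a wide range as well. Mean CPM in WT vehicle was under 1 in 36 members, 1 to 10 in 54, 10 to 100 in 69 and at least 100 in 11, with a median of 6.97 CPM. In WT LPS 24 h the median member stood at 25.6 CPM. The 8 WT LPS libraries all lay above the 6 WT vehicle libraries in 80 members and overlapped them in 90, with the share over all rows tested not given here. The change was at least 1 in both sexes in 110 members and below 0 in 1 sex in 5. Without the highest of the 8 LPS libraries of each member, it was under 1 in 36 members. Since these values chose the rows, they are a description.

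A share of the members was at 0 counts in some libraries and abundant in others of the same group. In 20 members (11.8%), at least 1 of the WT or KO vehicle or LPS 24 h groups held both a library with 0 counts and a library with 20 CPM or more. The same was true of 120 of the 15344 rows tested (0.782%). The WT libraries counted here also chose the members, and a 0 in WT vehicle raises the WT change. The difference between these shares is therefore a description and was not tested. Row 39694 was such a member. Its WT vehicle libraries ran from 0 CPM through a median of 130 to 205 CPM, and its WT LPS 24 h libraries from 96.7 through 209 to 237 CPM. In KO it ran from 0 through 143 to 220 CPM in vehicle and from 0 through 213 to 246 CPM in LPS 24 h, so the KO groups overlapped. Judged by the WT groups alone, 16 members were of this kind. The WT libraries were not compared in the KO test described next, but they entered its estimate of the spread. Of these 16, edgeR called 0 in KO at 24 h, with 0 at an unadjusted p under 0.05 and 0 called by DESeq2, against 109 of the other 154 members called higher by edgeR. A wide spread in WT makes a KO call less likely, so these counts are not independent of the WT values.

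Whether the same rows rose in Cre-positive mice was asked by comparing libraries that took no part in choosing them. In KO sorted cells at 24 h, 109 of the 170 members were higher than in vehicle, none was lower, and 61 were not called. The test was edgeR's quasi-likelihood test over all 33 sorted libraries, with Benjamini-Hochberg adjusted p under 0.05 over 15344 rows, all members included. The WT libraries thus entered the estimate of the spread, though not the comparison. Over all rows tested, 12.6% were called higher and 10.8% lower. Among members, 124 had an unadjusted p under 0.05 upwards and 0 downwards. Over all rows tested, 5280 had such a p in either direction. DESeq2 called 112 members higher and 0 lower, with the share of all rows it called not given here. The median log2 fold change of the members was 1.37, against -0.01 over all rows, with 162 members positive and 8 negative. Within the KO libraries numbered 3299 to 3315 (3 vehicle and 4 LPS), 99 members were called higher. Within those numbered 3376 to 3402 (3 and 3, with KO male vehicle replicate 3 among them) 42 were. Each run was fitted and filtered on its own, and the share of all rows called is not given here for either. The 99 and 42 are therefore not compared. In these bulk samples a larger number of cells of a type and more RNA per cell cannot be told apart.

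The KO response followed the WT one without equalling it in each row. On the log2(CPM + 1) scale the median change was 1.12 in KO and 1.33 in WT, and 39 members changed more in KO than in WT. The WT value is raised by the choice of rows on it, so this difference was not tested. Spearman's rho between the changes was 0.47 over the 170 members, which share their libraries. All 7 KO LPS libraries lay above all 6 KO vehicle libraries in 73 members, as in 678 of the rows tested (4.42%). The KO call was made in 77 of the 80 members whose WT groups did not overlap and in 32 of the 90 whose WT groups did. It was made in 97 of the 134 members whose WT change stayed at 1 or more without its highest library and in 12 of the other 36. The WT libraries also entered the spread used for the KO call. Both splits by WT values are therefore not independent of that call and were not tested. The calls came from every level, with 16 of the 36 members under 1 CPM in WT vehicle, 34 of 54 at 1 to 10 CPM, 50 of 69 at 10 to 100 CPM and 9 of 11 at 100 CPM or more.

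**Figure D2:**
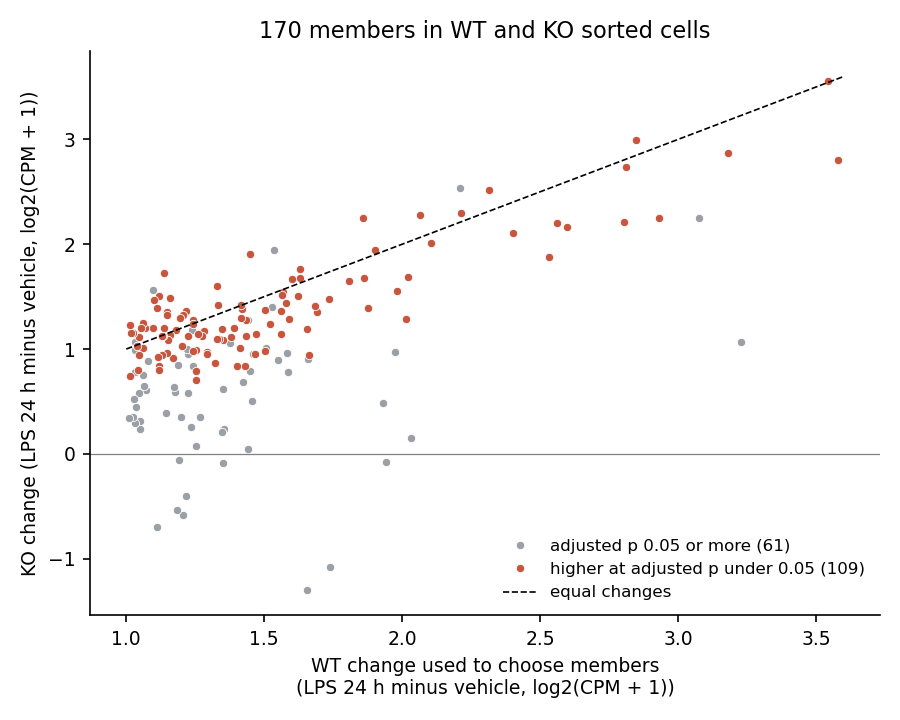
Change after LPS at 24 h of the 170 members in WT (horizontal, the value that chose them) and KO sorted cells (vertical), each as group means of log2(CPM + 1) minus vehicle. Red points are the 109 members called higher in KO, grey points the 61 not called, and the dashed line marks equal changes; 39 members lie above it and the grey points reach below 0.

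Row 16366 had the largest WT change. Its 6 WT vehicle libraries ran from 0.445 through a median of 0.945 to 3.21 CPM and its 8 WT LPS 24 h libraries from 7.31 through 29.4 to 53.1 CPM. In KO it ran from 1.08 through 1.92 to 3.57 CPM in vehicle and from 7.09 through 21.5 to 48.8 CPM at 24 h. Neither genotype's groups overlapped. The KO log2 fold change was 3.57 ± 0.48 (SE), with an adjusted p of 5.843e-06 by edgeR.

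Row 6504 had the next largest WT change and the largest KO rise among called members with a mean of at least 5 CPM. Its WT libraries ran from 0.267 through 1.89 to 6.61 CPM in vehicle and from 6.01 through 59.6 to 123 CPM at 24 h. In KO it ran from 0.586 through 1.23 to 2.38 CPM in vehicle and from 2.73 through 37.9 to 47.9 CPM at 24 h, so the KO groups did not overlap, although 1 female LPS library came close to vehicle. The KO log2 fold change was 4.57 ± 0.82 (SE), with an adjusted p of 0.0001719 by edgeR. Its neighbour in the table, row 6503, was a member too (chosen after its values were seen), with a KO log2 fold change of 1.05.

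Row 598 was low in vehicle in both genotypes, at 0 through 0.679 to 1.87 CPM in WT and 0 through 0.562 to 2.23 CPM in KO. At 24 h it stood at 1.95 through 15.6 to 23.0 CPM in WT and at 3.41 through 11.0 to 17.1 CPM in KO. The KO log2 fold change was 4.09 ± 0.76 (SE), with an adjusted p of 0.0002281 by edgeR, and all 7 KO LPS libraries lay above the 6 vehicle ones.

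Row 36728, chosen after its values were seen, was by far the most abundant member. It ran from 27900 through 34000 to 35900 CPM in WT vehicle and from 62100 through 86400 to 107000 CPM in WT LPS 24 h. In KO vehicle it ran from 30600 through 35900 to 63800 CPM, the highest being male replicate 3, and in KO LPS 24 h from 78000 through 86000 to 109000 CPM. The KO log2 fold change was 1.26 ± 0.16 (SE), with an adjusted p of 3.185e-06 by edgeR. Its culture level was far lower, with group means from 83.1 to 100.0 CPM. This row made up most of the members' share of all counts, which was 3.31% to 4.15% in WT vehicle and 7.45% to 12.2% in WT LPS 24 h. The other 169 members together held 0.527% to 0.635% of counts in WT vehicle and 1.24% to 1.71% in WT LPS 24 h, and in KO 0.521% to 0.832% and 1.23% to 1.60%.

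The KO response at 24 h had the same direction in both sexes in most members. The median log2 fold change was 1.42 in females and 1.29 in males, 151 members were positive in both sexes, and all 109 called members were. No member was called for a difference between the male and female responses by edgeR (background 0% higher and 0% lower). An unadjusted p under 0.05 was found for 13 members (904 of all 15344 rows tested), the lowest adjusted p was 0.627, and DESeq2 called 0. The median SE of this difference was 0.86 on the log2 scale, and 126 members lay within 1 of 0. In vehicle-treated KO mice, 0 members were called different between males and females by edgeR (background 0.0717% higher and 0.0196% lower). An unadjusted p under 0.05 was found for 21 members (1226 of all 15344 rows tested), and DESeq2 called 2 higher in males. Of those 21, 15 were higher and 6 lower in males, the group that holds KO male vehicle replicate 3.

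At 6 h, all 3 KO libraries and the KO vehicle libraries compared with them were male. The members were higher than vehicle at 6 h in 38 cases and lower in 1 (edgeR; background 4.27% higher and 2.85% lower). Without the 2 libraries near vehicle, 65 were higher and 1 lower (background 8.58% and 8.32%), including all 38. The median log2 fold change of the members was 0.91 with all libraries and 1.11 without those 2. When the 2 compared groups were fitted alone, 0 members were called in either direction, so these calls rest on the spread estimated from all sorted libraries. The count of 38 also depended on single libraries, with 18, 22 and 18 higher without KO male vehicle replicate 1, 2 and 3. Without KO replicate 1, 2 and 3 at 6 h it was 60, 6 and 3. The share of all rows called in these fits is not given here. A shift over all rows was therefore not told apart from one in the members. Of the 38 members, 37 were also called at 24 h and 1, row 696, was not. A further 72 were called at 24 h alone and 60 at neither time.

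Comparing the times directly, with the same 3 KO libraries at 6 h against 4 KO male libraries at 24 h, 29 members were lower at 6 h and 3 were higher (edgeR; background 3.55% lower and 2.93% higher). Without the 2 libraries near vehicle, 18 were lower and 6 higher (background 4.87% and 4.25%), of which 17 and 3 were called with all libraries. Leaving out any 1 library of either group gave 13 to 24 lower and 1 to 4 higher, the 13 without KO replicate 3 at 6 h. The share of all rows called in those fits is not given here. Of the 29, 26 were called against vehicle at 24 h and 2 were called higher at 6 h. The median log2 difference, 6 h minus 24 h, was -0.50 with all libraries, with 120 members lower at 6 h and 49 higher, and -0.29 without the 2 libraries near vehicle, with 102 lower and 67 higher. These libraries also entered the comparisons with vehicle above, and the 3 sets of calls are not independent.

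**Figure D3:**
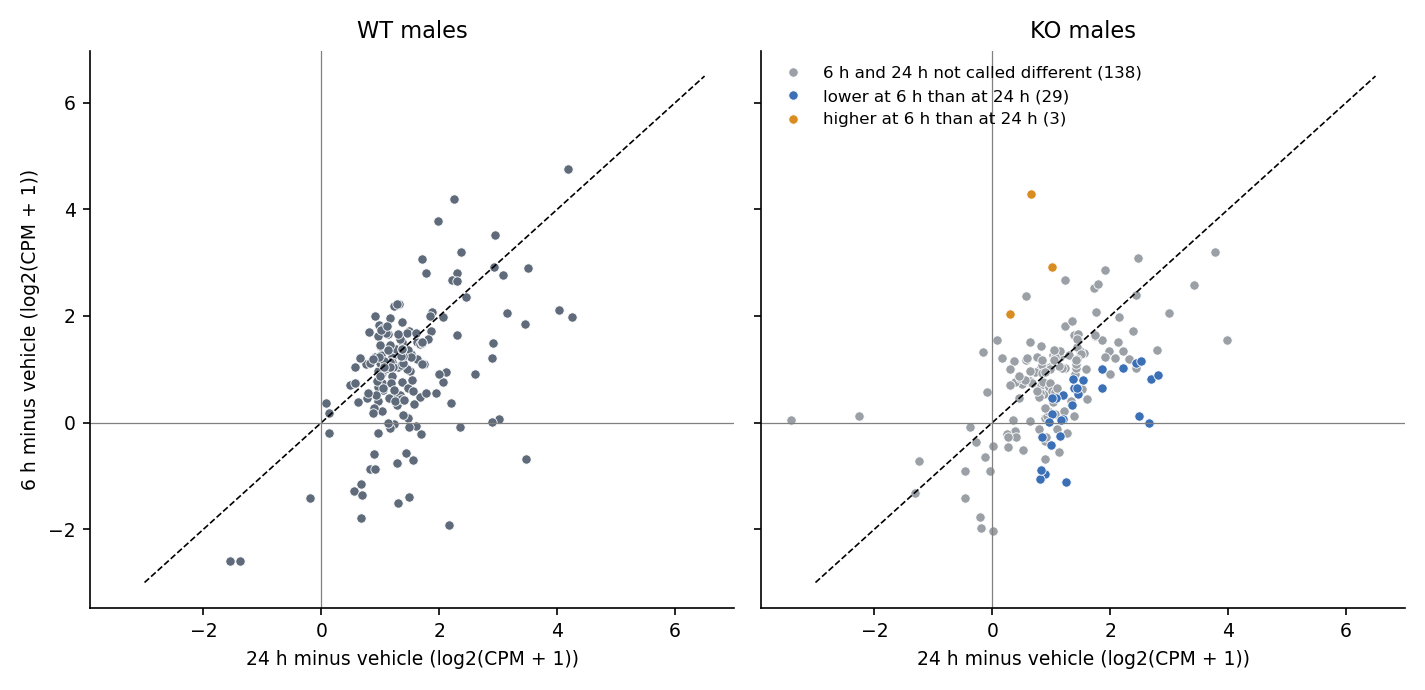
Change of the 170 members from vehicle at 24 h (horizontal) and at 6 h (vertical) in WT males (left) and KO males (right), as group means of log2(CPM + 1), with a dashed line at equal changes. Colours in the KO panel mark the 29 members called lower at 6 h than at 24 h (blue), the 3 called higher (orange) and the 138 not called; the orange points lie far above the line and the blue points below it, several near 0 at 6 h.

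Rows 598 and 1270 gave the largest falls from 24 h to 6 h by the naming rule. Row 598 stood at 0.604, 1.15 and 1.27 CPM in the 3 KO libraries at 6 h, within the KO vehicle range, and at 7.16 through 12.0 to 17.1 CPM in the 4 KO males at 24 h. Its log2 difference between 6 h and 24 h was -3.71 ± 0.99 (SE), with an adjusted p of 0.02191 by edgeR, and the adjusted p rose to 0.07287 to 0.08595 when any 1 of the 3 libraries at 6 h was left out, and was 0.04903 without the 2 libraries near vehicle. Row 1270 stood at 7.19, 7.24 and 8.44 CPM in KO at 6 h, at 3.81 through 7.49 to 10.9 CPM in KO vehicle, and at 23.7 through 47.1 to 66.5 CPM in KO males at 24 h. Its log2 difference was -2.75 ± 0.68 (SE), with an adjusted p of 0.01327 by edgeR, 0.06549 and 0.06308 without KO replicate 2 or 3 at 6 h, and 0.0306 without the 2 libraries near vehicle. In WT it stood at 3.72, 4.07 and 11.7 CPM at 6 h and at 9.24 through 56.4 to 101 CPM at 24 h. In both rows the 6 h values overlapped vehicle and lay below every KO library at 24 h. Row 16366 lay between, at 2.41, 4.93 and 6.90 CPM in KO at 6 h, and its adjusted p for 6 h against 24 h was 0.02644 with all libraries and 0.09294 without the 2 near vehicle.

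The other direction was seen in 3 members, of which row 10665 falls outside the naming rule and was chosen after its values were seen. Row 696 stood at 5.13, 122 and 144 CPM in the KO libraries at 6 h, at 0.679, 1.19 and 2.92 CPM in KO male vehicle, and at 1.11 through 3.22 to 5.46 CPM in KO males at 24 h. The WT libraries were alike, at 2.90, 81.5 and 130 CPM at 6 h. In both genotypes the low value was the library near vehicle, which overlapped the 24 h range. The log2 difference from 24 h was 4.63 ± 1.06 (SE), with an adjusted p of 0.007832 by edgeR, and 5.21, with an adjusted p of 0.000182, without the 2 libraries near vehicle. Its call against vehicle at 6 h was lost without KO male vehicle replicate 3 (adjusted p 0.05347 by edgeR) and without KO replicate 3 at 6 h (0.05372). Row 4379 stood at 118, 1270 and 1400 CPM in KO at 6 h, at 53.0 through 63.3 to 96.7 CPM in KO vehicle and at 69.2 through 176 to 313 CPM in KO males at 24 h. It was called higher at 6 h than at 24 h, at 2.18 ± 0.64 (log2, SE), adjusted p 0.03957 by edgeR, and higher than vehicle at both times, though the library near vehicle lay within the 24 h range. Without the 2 libraries near vehicle the adjusted p was 0.0001229, and it lay between 0.0666 and 0.198 when KO male replicate 1, 2 or 4 at 24 h or KO replicate 2 or 3 at 6 h was left out. Row 10665 stood at 16.9, 48.2 and 51.7 CPM at 6 h and at 5.73 through 10.5 to 14.2 CPM in KO males at 24 h, with an adjusted p of 0.04984 by edgeR. Its groups did not overlap, and the call was lost without any single KO male library at 24 h and without KO replicate 2 or 3 at 6 h, with adjusted p from 0.06278 to 0.2029. The adjusted p was 0.01046, at a log2 difference of 2.14, without the 2 libraries near vehicle.

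**Figure D4:**
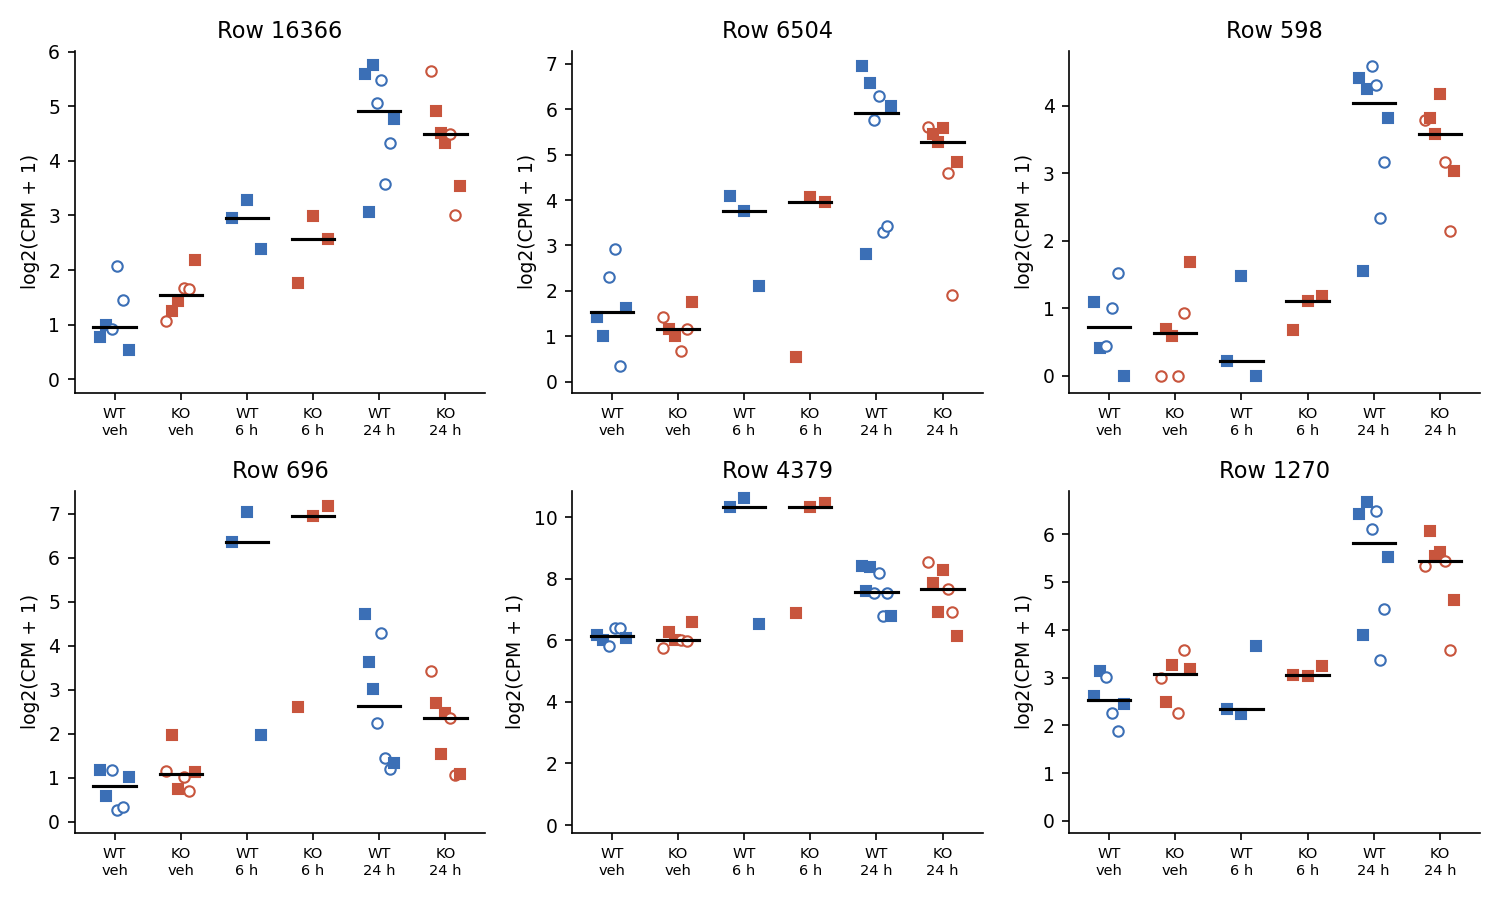
Levels of 6 named members in the 33 sorted libraries, as log2(CPM + 1), by genotype (blue, WT; red, KO) and treatment (veh, vehicle; 6 h and 24 h after LPS), with open circles for females, filled squares for males and black lines for group medians. Rows 16366, 6504, 598 and 1270 are highest at 24 h, and rows 696 and 4379 are highest in 2 of the 3 libraries of each genotype at 6 h, the third lying near vehicle.

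The 2 largest rises from vehicle to 6 h by the naming rule were in rows with almost no counts before LPS. Row 8761 held 0 counts in the 3 KO male vehicle libraries and 0, 23.3 and 24.6 CPM at 6 h. Row 12526 held 1 count over the same vehicle libraries and 0, 19.4 and 21.3 CPM at 6 h. In both rows the library at 0 was the one near vehicle, so the 6 h group overlapped vehicle. The adjusted p of 0.04525 and 0.04099 by edgeR rose to between 0.1132 and 0.1421 and between 0.1004 and 0.1384 in 5 of the 6 fits that left out 1 library, and was 0.005793 and 0.004257 without the 2 libraries near vehicle. At 24 h both had 1 high KO library, female replicate 1, with 34.4 CPM for row 8761 and 40.3 CPM for row 12526, against 0 to 12.2 CPM and 0.682 to 4.78 CPM in the other 6. Without it the 24 h adjusted p of row 8761 was 0.05287.

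The single member called lower at 6 h than in vehicle was row 29437, which falls outside the naming rule and was chosen after its values were seen. It stood at 0.340, 0.922 and 4.76 CPM in KO male vehicle and at 0, 0.288 and 0.302 CPM at 6 h, so the groups did not overlap. The highest vehicle value was from replicate 3, the library that stood apart. The log2 fold change was -3.36 ± 1.01 (SE), with an adjusted p of 0.04179 by edgeR, and was -1.67, with an adjusted p of 0.3943, without that library. Without KO replicate 2 or 3 at 6 h the adjusted p was 0.1316 and 0.202, and without the 2 libraries near vehicle it was 0.039.

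At 6 h no member was called different between KO and WT males (edgeR; background 0.00652% higher and 0.013% lower in KO, and 0.0253% and 0% without the 2 libraries near vehicle). On simulated counts, this comparison recovered 18% of rows changed 2-fold and 69% of rows changed 4-fold. The absence of a call therefore does not show equal levels. An unadjusted p under 0.05 was found for 7 members, 2 higher and 5 lower in KO (444 of all 15344 rows tested), and DESeq2 called 1 higher. Without the 2 libraries near vehicle edgeR again called 0 in either direction, with 4 at an unadjusted p under 0.05 (678 of all 15837 rows tested). The median log2 difference was -0.10 with all libraries, with a median SE of 0.62, and 148 members lay within 1 of 0. Row 4379 differed by -0.07 ± 0.68 (SE) and row 696 by 0.34 ± 0.99 (SE), each with 1 low library per genotype. These values were -0.08 ± 0.51 and 0.34 ± 0.92 without the 2 libraries near vehicle.

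Rows that also rose in culture give a measure of how far the members differ from other LPS-responsive rows. For this, 174 rows were taken with WT changes of at least 1 in sorted cells at 24 h and in culture after LPS. In KO at 24 h, 153 of these were called higher and 0 lower, with a median log2 fold change of 1.94, against 109 of 170 and 1.37 for the members. At 6 h, 67 of the 174 and 38 of the 170 were called higher, with medians of 1.66 and 0.91. Without the 2 libraries near vehicle, 109 and 65 were, with medians of 2.05 and 1.11. For 6 h minus 24 h the medians were -0.71 and -0.50 with all libraries and -0.36 and -0.29 without those 2. The groups were chosen by different WT values, and the differences between them were not tested. Of 200 rows that fell in WT sorted cells alone, by the mirror image of the rule, 198 passed the filter, and 143 of them were called lower in KO at 24 h.

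The members divided by their level in culture. Over the 34 culture libraries, 13 had no counts at all, 55 more had a mean under 1 CPM, 19 had 1 to 10 CPM and 83 had at least 10 CPM, of which 34 had 100 CPM or more. For the 68 members under 1 CPM, the culture conditions of the rule ask little, because a pseudocount of 1 holds such rows near 0. With a pseudocount of 0.1 in culture, 9 members passed a rise of 1 after LPS in WT and 10 passed a fall of 1. The KO call at 24 h was made in 31 of these 68 members and in 78 of the other 102, with medians of 1.44 and 1.34 log2. Of the 20 members that were absent in some libraries of a group and abundant in others, 16 were under 1 CPM in culture.

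**Figure D5:**
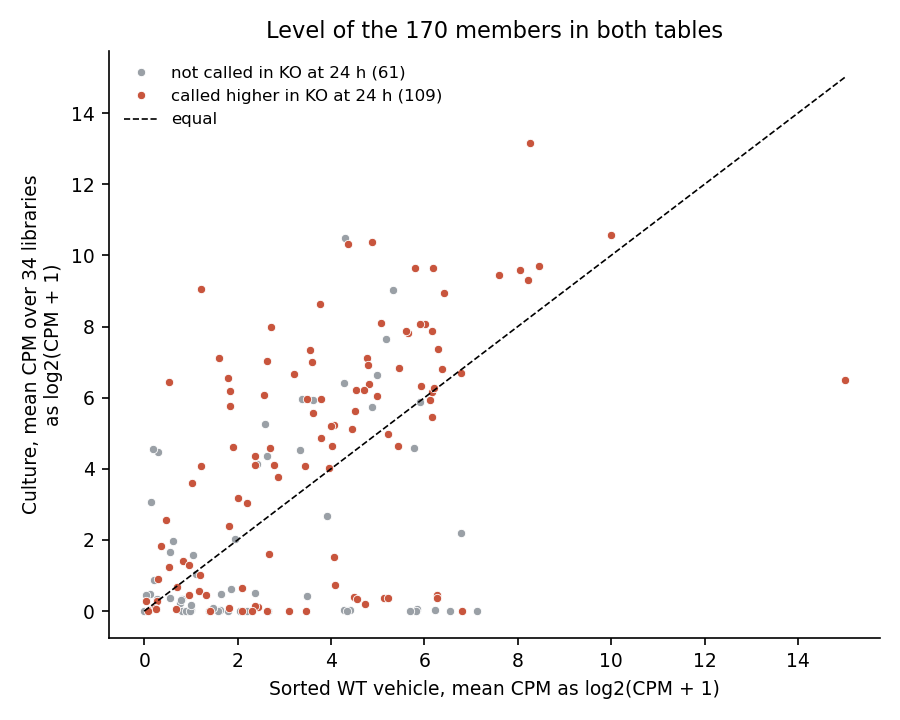
Level of the 170 members in sorted WT vehicle (horizontal, mean CPM) and in culture (vertical, mean CPM over 34 libraries), both drawn as log2(CPM + 1), with a dashed line at equal levels. Red points were called higher in KO at 24 h; points along the bottom are the 68 members under 1 CPM in culture, and the point at far right is row 36728.

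The other 102 members were present in culture with changes that stayed under the limits of the rule. The 6 WT culture LPS libraries all lay below the 6 WT culture vehicle libraries in 18 of them and above in 5. The share of all culture rows of which this held is not given here, so these counts are a description. Mean CPM in WT vehicle was higher in culture than in sorted cells for 86 of the 102, and for 59 it was above the level that sorted WT cells reached at 24 h. By mean CPM it was at least 4-fold higher in culture for 47 and at least 4-fold higher in sorted cells for 3. The tables were made with different kits and were not normalized together, so these levels are set side by side without a test. Row 16366 stood at 20.7 through 25.0 to 29.6 CPM in WT culture vehicle and at 15.6 through 18.9 to 29.5 CPM in WT culture LPS, overlapping groups that both exceeded the sorted WT vehicle range. Row 6504 gave 53.2 through 69.3 to 76.9 CPM and 35.3 through 40.3 to 62.2 CPM, which overlapped as well. Row 1270 gave 133 through 149 to 164 CPM in vehicle and 69.1 through 80.5 to 97.9 CPM in LPS. These groups did not overlap, with LPS the lower. Row 16366 lay just inside the limit of 1 between genotypes, with KO minus WT culture vehicle at -0.9957 in log2(CPM + 1). This was the largest rule difference in culture of any member. Its KO culture libraries ran from 9.59 to 16.1 CPM in vehicle, below every WT vehicle library, and 6.38 to 8.68 CPM in LPS. For row 598 the difference was 0.9594, with 0.514 to 1.64 CPM in WT culture vehicle and 1.79 to 3.98 CPM in KO. The vehicle values chose the members and were not tested.

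KO culture LPS was the culture treatment that the rule left out, though its vehicle group was used by the rule, so the values are a description. The difference from KO vehicle ran from -1.30 to 1.52 on the log2(CPM + 1) scale with a median of 0, was at least 1 in 2 members and at most -1 in 1. All 5 LPS libraries lay above all 6 vehicle libraries in 10 members and below them in 6, with the share over all culture rows not given here. Row 12526 had the largest difference in size, from 0 through 0.449 to 0.544 CPM in KO vehicle to 1.20 through 3.04 to 5.31 CPM in KO LPS, without overlap. In WT culture the same row ran from 0 through 0.187 to 0.330 CPM and from 0.349 through 1.03 to 2.33 CPM, also without overlap. Row 39694 had the next largest, a fall from a range of 0 to 19.8 CPM in vehicle, with a median of 0, to 0 in all LPS libraries.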

How the data were processed

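RNA-seq was deposited as a pair of tables of raw counts per row and library. The authors deposited whole-number counts, and the submitters' processing notes name the build GRCm38 and the tools STAR 2.7.10a, Salmon 1.10.1 and Trim Galore 0.6.7, with their order and settings not given in the sources used here. Per the labels' protocols, sorted libraries were made from 0.97 ng of total RNA with a SMARTer stranded kit for total RNA and culture libraries from 100 ng with a NEBNext kit. Metadata deposited beside the sorted counts call the cells cultured primary microglia, and the labels were followed.

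CPM was computed from column sums. The members, rules and comparison rows were chosen with earlier results of these data known. The values of WT vehicle and WT LPS 24 h in sorted cells and of culture WT and KO vehicle and Tg+PDBu and WT LPS chose the members and were not tested. For the rest, edgeR 4.0.16 (R 4.3.3) was run on the 15344 rows of the sorted table that passed filterByExpr (minimum count 10, minimum total 15), with TMM scaling, 1 mean per group of genotype, sex and treatment, sexes weighted equally, and two-sided quasi-likelihood tests. Calls had a Benjamini-Hochberg adjusted p under 0.05. Each standard error was the fold change divided by the root of its F statistic. The script was tested on simulated counts. Reads carried no molecular identifiers, and reads shared between similar genes could not be traced.

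Named rows were the 2 members with the largest WT change, the 2 largest rises and falls among called members with a mean of at least 5 CPM in each comparison, and the 2 largest KO culture LPS differences in size. Alternatives were other scaling (RLE), no filter, DESeq2 1.42.0, the compared groups alone, the replicate block, other forms of the rule, the run of library numbers, each library left out and, chosen after seeing the data, the 6 h results without 2 libraries. Figures were drawn with matplotlib 3.10.9.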

Additional observations from a re-analysis of the deposited data

Results flagged for a closer look

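Values were marked in 13 of 56 groups of 4 to 10 libraries because the highest or lowest library stood far from the rest relative to the group's range. A rate of about 1 group in 20 by chance holds for independent, normally distributed values and was not checked for low counts such as these. Several marked groups share a library, so they are not independent.

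KO male vehicle replicate 3 was marked 4 times. Its median member difference from KO vehicle was 0.284, against 0.026 in the next library. The members held 7.21% of its counts, against 4.44% in the next. Row 36728 stood at 63800 CPM in it, with the next library at 39200 CPM, and row 29437 at 4.76 CPM, with the next at 1.85 CPM. Its part in the vehicle comparisons was tested only by leaving it out.

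KO female LPS 24 h replicate 1 was marked in 3 rows, with 34.4 CPM for row 8761 (next 12.2), 57.0 CPM for row 10665 (next 14.2) and 40.3 CPM for row 12526 (next 4.78).

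WT female vehicle replicate 2 had the lowest median member difference of the WT vehicle libraries, at -0.13, against -0.012 in the next, and the highest value of row 12526, at 0.802 CPM. In KO vehicle, row 696 stood at 2.92 CPM in male replicate 1 and row 10665 at 13.8 CPM in male replicate 2, where the next libraries had 1.24 and 6.61 CPM. Row 8761 stood at 0.306 CPM in KO female vehicle replicate 3 and row 12526 at 0.17 CPM in KO male vehicle replicate 2, with 0 in the other 5 libraries of the group in each case.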

How the results depend on the processing

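The 12 counts of members called kept within 1.5 times of their value in 87 of 102 values under settings other than leaving out 1 library. A count of 0 that stayed at 0 was taken as kept. With all libraries, the counts were 0 in both directions for KO against WT at 6 h and for each comparison of the sexes. The count lower in KO at 24 h was 0 too. In KO at 24 h, 42 members were called higher within the second run of library numbers (3376 to 3402) and 99 within the first, and 1 was called lower with the replicate block. At 6 h against vehicle, 0 were higher and 0 lower with the compared groups alone, 2 were lower with no filter, 4 lower with DESeq2 and 0 lower with the replicate block; without the 2 libraries near vehicle 65 were higher. For 6 h against 24 h, 1 was higher with the compared groups alone and 1 with the replicate block, and without the 2 libraries 6 were higher and 18 lower. For KO against WT at 6 h, DESeq2 called 1 higher. For KO vehicle males against females, 1 was higher with no filter and 2 with DESeq2. The cause of these shifts was not tested. The share of all rows called is given only for the fits with all libraries and those without the 2 near vehicle. Leaving out each library in turn gave 95 to 112 higher in KO at 24 h, 3 to 60 higher and 0 to 1 lower at 6 h against vehicle, 1 to 4 higher and 13 to 24 lower for 6 h against 24 h, and 0 to 2 higher for KO vehicle males against females. The 6 h count was 18, 22 and 18 without KO male vehicle replicate 1, 2 and 3, and 60, 6 and 3 without KO replicate 1, 2 and 3 at 6 h. The count lower at 6 h than at 24 h was 19 without KO male replicate 4 at 24 h and 15, 17 and 13 without KO replicate 1, 2 and 3 at 6 h. Of 23 calls on named rows, none changed sign, and the call was lost in 18 of 151 values under other settings and 50 of 209 that left out 1 library. With a pseudocount of 0.5 or TMM-scaled CPM the rule gave 200 members, 153 and 157 of them shared. Same-numbered KO vehicle and LPS 24 h libraries deviated with correlations of -0.00581 to 0.0567, so the numbers were not taken as pairs. In KO females each vehicle library correlated best with the LPS 24 h library of its own number, at 0.00411 to 0.0567. In KO males none did, at -0.00581 to 0.0161.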
